A study of Mus musculus with 25 samples.

Results

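Extracellular matrix genes were followed in mouse Ep5 (EpRas) mammary tumour cells that met platelets or platelet fractions. The 44 genes encode fibrillar and fibril-associated collagens, basement membrane proteins, crosslinking enzymes, elastic fibre and TGF-beta-storing proteins, small leucine-rich proteoglycans and matricellular proteins. They were listed by symbol, and a gene was followed where a probe set with that symbol alone was on the array. Of the 44, 41 were measured on both array types used and 42 on each. The lysyl oxidase gene Lox was measured on the gene arrays only, and its relative Loxl2 on the exon arrays only. The fibrillin gene Fbn1 had no probe set of its own on either and was not analysed here.

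Collagen triple helices either assemble into fibrils or, with laminins, nidogens and heparan sulphate proteoglycans, build the sheet called the basement membrane on which epithelial cells rest. Lysyl oxidases join collagen and elastin chains by crosslinks, and latent TGF-beta binding proteins and fibrillin microfibrils hold the growth factor TGF-beta in the matrix in an inactive form. Platelets carry TGF-beta in their granules, and TGF-beta is a known inducer of matrix genes in epithelial cells and fibroblasts.

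Ep5 is a single cell line, given as C57BL/6 in the labels. On the exon arrays, cells were alone (n = 5), cultured for 24 h with wild-type C57BL/6 platelets at about 1000 platelets per cell (n = 5), or joined with platelets at the same ratio just before RNA was taken (n = 3), here called the lysis mix. On the gene arrays, cells were alone, with platelets as above, or cultured for 24 h with the pellet or the releasate of platelets that had been treated with thrombin and spun (n = 3 each). Levels are log2 values, a difference of 1 being a doubling, and a difference was called at an adjusted p under 0.05 by limma over all genes of that array type. Nothing in the labels says that the samples were separate cultures, and the p-values therefore rest on a spread that may be technical.

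Markers of other cell types were set beside the matrix genes. The mean log2 level of epithelial markers such as Epcam and Krt8, the type the line comes from, lay between 9.90 and 10.28 over all exon arrays and between 9.98 and 10.41 over all gene arrays. Stromal markers such as Pdgfrb and Pecam1 had a mean level between 3.26 and 3.66 on the exon arrays, with group means of 3.33 alone, 3.45 with platelets and 3.34 in the lysis mix and 0 of 8 called. On the gene arrays their group means were 5.03 alone, 5.12 with platelets, 5.10 with pellet and 5.05 with releasate. None of the 8 was called against alone there, and the largest differences were 0.64 with platelets, 0.38 with pellet and 0.10 with releasate. Of 12 leukocyte markers measured on the exon arrays, Laptm5 and Csf1r were called above alone after coculture. In the lysis mix 0 of 12 were called against alone, and the largest difference was 3.27 log2. Coculture differed from the lysis mix by -0.94 to 0.36, with 0 of 12 called. The list averaged 3.71 to 3.89 alone, 3.93 to 4.16 after coculture and 4.01 to 4.08 in the lysis mix. The part of such cells in the results was not tested. Platelet markers such as Pf4 averaged 3.66 to 3.86 alone, 4.58 to 6.34 after coculture and 5.45 to 5.79 in the lysis mix, and 11 of 17 measured passed against alone after coculture and 7 of 17 in the lysis mix. On the gene arrays they averaged 5.54 to 5.65 alone, 5.99 to 6.02 with platelets, 5.90 to 5.97 with pellet and 5.49 to 5.54 with releasate. Exon arrays alone 5 and coculture 5 correlated least with the rest of their groups. On the gene arrays, the platelet description of alone 8 and platelets 9 contradicts the source name by which they were grouped.

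Upstream sequences are shown for 4 of the 7 genes called in a comparison, chosen after their values were seen: Postn, called on both array types, and Col7a1, Ltbp2 and Loxl4. Each run is the 250 bases before a transcript start, read 5′ to 3′ on the strand of the gene, from the RefSeq table for GRCm38.p6. Postn on the plus strand of chromosome 3 has 2 listed starts, with windows chr3:54359017-54359266 and chr3:54360857-54361106. The Col7a1 window is chr9:108953336-108953585 on the plus strand, that of Ltbp2 is chr12:84876492-84876741 on the minus strand, and that of Loxl4 is chr19:42612807-42613056 on the minus strand. Capitals mark a match to the Smad-type letters CAGACA on either strand.
Postn, first start: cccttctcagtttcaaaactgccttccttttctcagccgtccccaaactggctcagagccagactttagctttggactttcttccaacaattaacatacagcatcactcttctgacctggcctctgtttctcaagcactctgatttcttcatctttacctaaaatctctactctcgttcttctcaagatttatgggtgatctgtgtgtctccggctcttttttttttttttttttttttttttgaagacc
Postn, second start: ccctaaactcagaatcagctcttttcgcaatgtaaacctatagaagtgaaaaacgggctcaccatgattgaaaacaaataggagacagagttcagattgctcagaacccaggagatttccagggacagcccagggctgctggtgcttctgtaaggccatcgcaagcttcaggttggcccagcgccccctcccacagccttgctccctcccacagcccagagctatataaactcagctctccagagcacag
Col7a1: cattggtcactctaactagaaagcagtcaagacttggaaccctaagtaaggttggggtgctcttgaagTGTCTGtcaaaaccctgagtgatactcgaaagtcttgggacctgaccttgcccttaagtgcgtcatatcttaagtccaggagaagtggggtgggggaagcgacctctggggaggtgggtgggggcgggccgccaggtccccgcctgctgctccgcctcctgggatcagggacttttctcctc
Ltbp2: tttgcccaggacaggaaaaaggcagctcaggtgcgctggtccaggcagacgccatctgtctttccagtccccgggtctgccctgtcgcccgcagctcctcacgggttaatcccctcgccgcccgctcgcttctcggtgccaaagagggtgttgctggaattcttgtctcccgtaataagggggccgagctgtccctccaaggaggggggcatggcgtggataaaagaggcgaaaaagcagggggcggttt
Loxl4: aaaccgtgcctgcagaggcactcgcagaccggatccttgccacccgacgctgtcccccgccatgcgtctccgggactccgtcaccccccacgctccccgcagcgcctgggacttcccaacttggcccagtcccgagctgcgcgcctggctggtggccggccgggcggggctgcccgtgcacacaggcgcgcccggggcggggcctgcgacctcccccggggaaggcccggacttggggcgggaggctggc

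The Col7a1 window held 1 Smad-type match, 182 bases before the start, and the other 4 printed windows held none. None of the 5 held TGANTCA, the AP-1 letters, or GGAATG, the TEAD letters, on either strand. Over 32851 windows of this length in the table, 17.1% held the Smad-type letters, 6.75% the AP-1 letters and 12.6% the TEAD letters. The 37 windows of 30 members, counted the same way, held the Smad-type letters in 12 (32.4%), the TEAD letters in 5 (13.5%) and the AP-1 letters in 1 (2.7%), that of Col6a1. The neighbours Col4a1 and Col4a2 start 21 bases apart on opposite strands of chromosome 8, and their windows before the start do not overlap. A match is a description of letters and not of a bound site.

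After 24 h with platelets, 6 of the 42 matrix genes on the exon arrays differed from cells alone, 5 higher and 1 lower. Ltbp2, Col7a1, Fbln2, Lama3 and Postn rose, and Loxl4 fell. Over all 18997 genes, 4.55% were called in this comparison. The median difference of the 42 was 0.07 log2, against -0.001 over all genes, and 15 of the 42 had an unadjusted p under 0.05. The share of all genes at that unadjusted threshold was not counted, here or for later counts of this kind. None of the 42 was called in the lysis mix against cells alone, where 0.0474% of all genes were, and none had an unadjusted p under 0.05 there by limma. In bulk samples, fewer cells of a type and less RNA per cell cannot be told apart.

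Among the basement membrane genes, 2 of 14 rose, 0 fell and 12 did not pass. Col7a1 encodes type VII collagen, the chain of the anchoring fibrils that tie epithelial basement membrane to the stroma. Its log2 level (probe set 6992378) was 5.86, 5.92, 5.87, 6.16 and 5.99 in the 5 alone arrays, 7.17, 7.09, 7.29, 7.66 and 6.85 after coculture, and 6.21, 5.99 and 6.24 in the lysis mix. Every coculture array was above every other exon array. The rise over cells alone was 1.25 ± 0.13 (SE) log2, or 2.38-fold (adjusted p = 0.000106, limma), and over the lysis mix 1.06 ± 0.15 (adjusted p = 0.00148).

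Lama3 encodes the alpha chain of the laminin that epithelial cells bind through hemidesmosomes. It stood at 6.97, 6.95, 6.91, 6.95 and 6.98 alone (probe set 6858908), at 7.30, 7.39, 7.32, 7.54 and 7.49 after coculture, and at 6.95, 7.09 and 7.19 in the lysis mix. The alone arrays were close together, with an SD of 0.02, and all 5 coculture arrays lay above all others. The rise of 0.45 ± 0.07 log2 over cells alone, or 1.37-fold, had an adjusted p of 0.00129, and that of 0.33 ± 0.08 over the lysis mix one of 0.0311 by limma. The call over the lysis mix held in 3 of 8 fits without 1 array, with adjusted p values from 0.0372 to 0.132, and was lost without coculture 2, coculture 4, coculture 5, lysis mix 4 or lysis mix 5. Lamb3, the beta chain of the same laminin, was 0.97 ± 0.28 higher than alone with an adjusted p of 0.0780 and did not pass. It ran from 8.95 to 9.88 alone, from 9.77 to 10.91 after coculture and from 9.15 to 10.47 in the lysis mix, so the groups overlapped.

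Large values below 0 in the basement membrane group did not pass. Hspg2, which encodes the heparan sulphate proteoglycan perlecan, was -0.77 ± 0.32 log2 against alone (adjusted p = 0.279, limma), from 7.75 to 9.24 alone and from 7.21 to 7.95 after coculture. Lama5, the alpha chain of the common epithelial laminins, was -0.56 ± 0.18 (adjusted p = 0.113), from 10.36 to 11.28 alone and from 10.18 to 10.49 after coculture. Alone 1 and alone 5 were the highest alone arrays for both genes. The type IV collagen genes Col4a1 and Col4a2, the network formers of basement membrane, differed by 0.05 ± 0.05 and 0.08 ± 0.07. The other 7 members of the group, Col17a1, Col18a1, Lamb1, Lamc1, Nid1, Nid2 and Agrn, lay between -0.14 (Agrn) and 0.21 (Lamb1).

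The elastic fibre and TGF-beta-storing group held the largest rise. Ltbp2 belongs to the latent TGF-beta binding protein family but is known for binding fibrillin microfibrils and not latent TGF-beta. It stood at 7.38, 6.45, 6.74, 6.93 and 7.76 alone (probe set 6802352), at 8.53, 8.05, 8.21, 8.57 and 8.98 after coculture, and at 7.11, 7.74 and 7.33 in the lysis mix. The coculture arrays did not overlap either control, although alone 1 and alone 5 reached levels near those of the lysis mix. Ltbp2 rose by 1.42 ± 0.24 log2 over cells alone, or 2.67-fold (adjusted p = 0.00444, limma). Against the lysis mix it was 1.08 ± 0.28 higher (adjusted p = 0.0585), which did not pass. It passed under 7 of 9 other settings and in 0 of 8 fits without 1 array.

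Fbln2 encodes fibulin-2, a glycoprotein found at elastic fibres and basement membranes. Its level was 10.78, 10.13, 10.09, 10.09 and 10.63 alone (probe set 6947987), 11.11, 10.85, 10.97, 11.14 and 11.19 after coculture, and 10.10, 10.73 and 10.32 in the lysis mix. The lowest coculture array, at 10.85, was just above the highest alone array, at 10.78. The rise was 0.71 ± 0.16 log2, or 1.63-fold (adjusted p = 0.0236, limma). This call held in 4 of 10 fits without 1 array, with adjusted p values from 0.00786 to 0.0663, and was lost without alone 2, alone 3, alone 4, coculture 1, coculture 4 or coculture 5. Against the lysis mix the difference was 0.67 ± 0.19 with an adjusted p of 0.0758.

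The members of the group that bind latent TGF-beta were not called. Ltbp1 differed by 0.04 ± 0.10 log2 (95% interval -0.18 to 0.25) from cells alone. Ltbp3 was -0.68 ± 0.30 with an adjusted p of 0.335, from 9.54 to 10.82 alone and from 9.02 to 10.03 after coculture. The elastin gene Eln and the elastic fibre genes Fbln1 and Emilin1 lay between 0.008 and 0.04.

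Among the 4 crosslinking genes, Loxl4 fell and 3 did not pass. Loxl4 encodes a lysyl oxidase-like enzyme. Its log2 level was 8.19, 8.45, 8.40, 8.13 and 8.80 alone (probe set 6873194), 7.15, 7.12, 7.31, 7.76 and 7.86 after coculture, and 8.22, 8.85 and 9.05 in the lysis mix. All 5 coculture arrays were below all 8 others. Loxl4 fell by 0.96 ± 0.20 log2 against alone, or 1.94-fold (adjusted p = 0.0134, limma), and by 1.27 ± 0.23 against the lysis mix (adjusted p = 0.00664). Plod2, a lysyl hydroxylase that prepares collagen for crosslinking, differed by 0.20 ± 0.16, Loxl1 by 0.07 ± 0.07 and Loxl2 by 0.08 ± 0.06.

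Of 5 matricellular genes, Postn rose and 4 did not pass. Postn encodes periostin, which binds collagen and integrins. It stood at 2.98, 2.89, 2.93, 2.93 and 2.95 alone (probe set 6897557), at 3.30, 3.25, 3.34, 3.18 and 3.14 after coculture, and at 3.0, 2.90 and 2.91 in the lysis mix. The groups did not overlap, and the step was small, at 0.30 ± 0.06 log2 or 1.23-fold over alone (adjusted p = 0.00811, limma) and 0.30 ± 0.07 over the lysis mix (adjusted p = 0.0222). The call over the lysis mix held in 3 of 8 fits without 1 array, with adjusted p values from 0.0184 to 0.113, and was lost without coculture 1, coculture 2, coculture 3, lysis mix 5 or lysis mix 6. These levels lie below the median gene level of the exon arrays, 4.54, and no signal was tested against background. Sparc, a collagen-binding glycoprotein, differed by 0.15 ± 0.17, Thbs1, thrombospondin-1, which can activate latent TGF-beta, by -0.16 ± 0.13, Thbs2 by 0.07 ± 0.06 and Tgfbi by -0.18 ± 0.13.

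None of the 5 fibrillar collagen genes, of the 4 fibril-associated and microfibrillar collagen genes or of the 3 small leucine-rich proteoglycan genes was called against cells alone. Col1a1, a chain of type I collagen, came nearest among the fibrillar genes, at 0.46 ± 0.14 log2 (adjusted p = 0.109, limma). It was 4.13, 4.21, 4.23, 4.40 and 4.32 alone and 4.50, 4.37, 4.51, 5.15 and 5.07 after coculture, with coculture 4 and 5 above the rest. Col1a2, its partner chain, differed by 0.20 ± 0.07, and Col3a1, Col5a1 and Col5a2 by 0.04 to 0.08.

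Col16a1, a fibril-associated collagen, was 0.46 ± 0.12 log2 above alone (adjusted p = 0.0593, limma) and was called against the lysis mix, at 0.70 ± 0.14 (adjusted p = 0.0150). That call was lost without lysis mix 4 or lysis mix 6 and held in the other 6 fits without 1 array, with adjusted p values from 0.0165 to 0.0741 over the 8. Its coculture values of 5.51, 5.64, 5.74, 5.68 and 5.41 all lay above the lysis mix values of 4.70, 5.09 and 4.89. Alone arrays ran from 4.71 to 5.41. Bgn, the proteoglycan biglycan, was 0.37 ± 0.14 above alone (adjusted p = 0.221), while Dcn, Lum, Col6a1, Col6a2 and Col12a1 lay between -0.004 and 0.18. All 5 fibrillar genes, all 3 proteoglycan genes and 24 of the 42 members in all had a mean below the median gene level of the exon arrays.

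**Figure D1:**
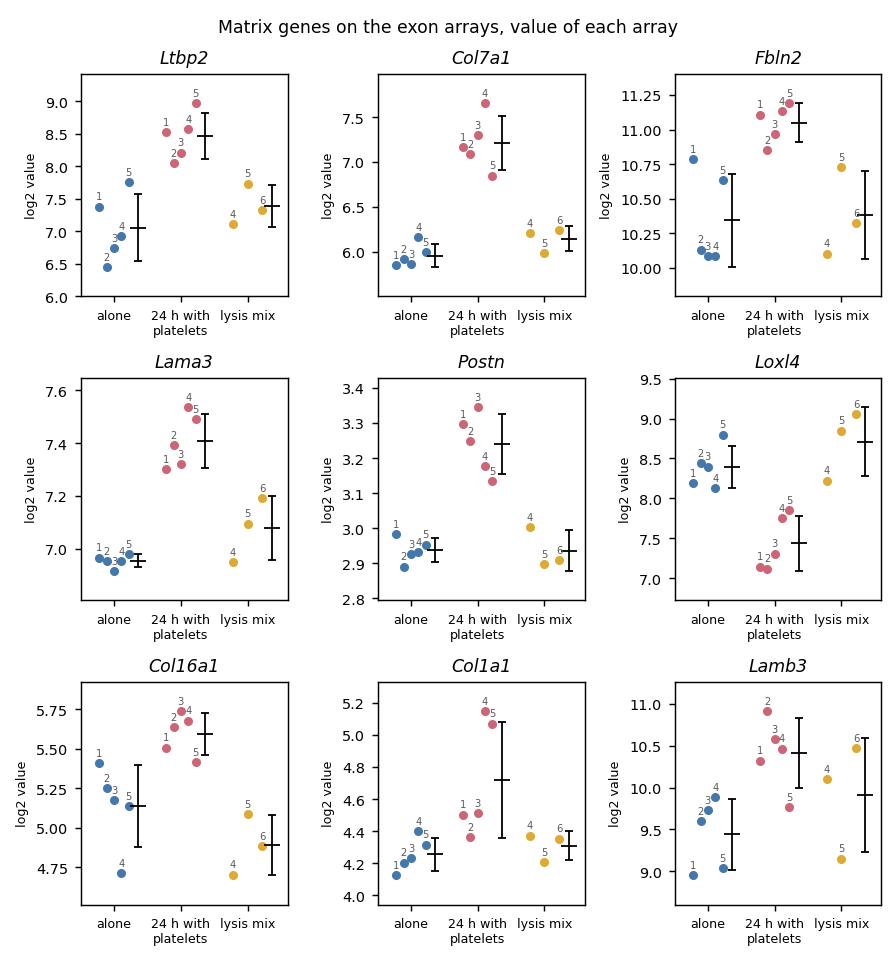
Log2 value (y axis, own scale per panel) of each exon array, numbered by replicate, for the 6 called matrix genes and 3 that were not called against cells alone (Col16a1, Col1a1, Lamb3); black bars are mean and SD of each group (n = 5, 5 and 3). Coculture arrays of Ltbp2, Col7a1, Fbln2, Lama3, Postn and, by a very small margin, Col16a1 lie above all others. Those of Loxl4 lie below all others, while those of Col1a1 and Lamb3 overlap both controls.

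Against the lysis mix, 5 of 42 members were called after coculture, 4 higher and 1 lower, where 3.68% of all genes were called. These were Col7a1, Col16a1, Lama3 and Postn above and Loxl4 below. Both comparisons share the coculture arrays, so they are not independent. Ltbp2 and Fbln2, called against cells alone, did not pass here, and Col16a1 passed here and not against alone.

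The lysis mix gives the level of each gene when platelet RNA is present and the cells had no time to respond, and none of the 6 genes was called there. Its difference from alone was 0.34 log2 for Ltbp2 (95% interval -0.28 to 0.95), 0.19 for Col7a1 (-0.14 to 0.51), 0.04 for Fbln2 (-0.36 to 0.44), 0.13 for Lama3 (-0.04 to 0.29) and -0.001 for Postn (-0.14 to 0.14). For Loxl4 it was 0.31 (-0.18 to 0.81), opposite in sign to the coculture difference. Over the 42 members these differences ran from -0.25 for Col16a1 to 0.47 for Lamb3, with a median of 0.02, against -0.04 over all genes. Mean platelet marker levels in the lysis mix were 5.45, 5.79 and 5.53. They lay below those of coculture 1 to 3 (5.95, 5.88 and 6.34). They lay above those of coculture 4 and 5 (4.58 and 5.07), so the platelet signal was not matched array by array.

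**Figure D2:**
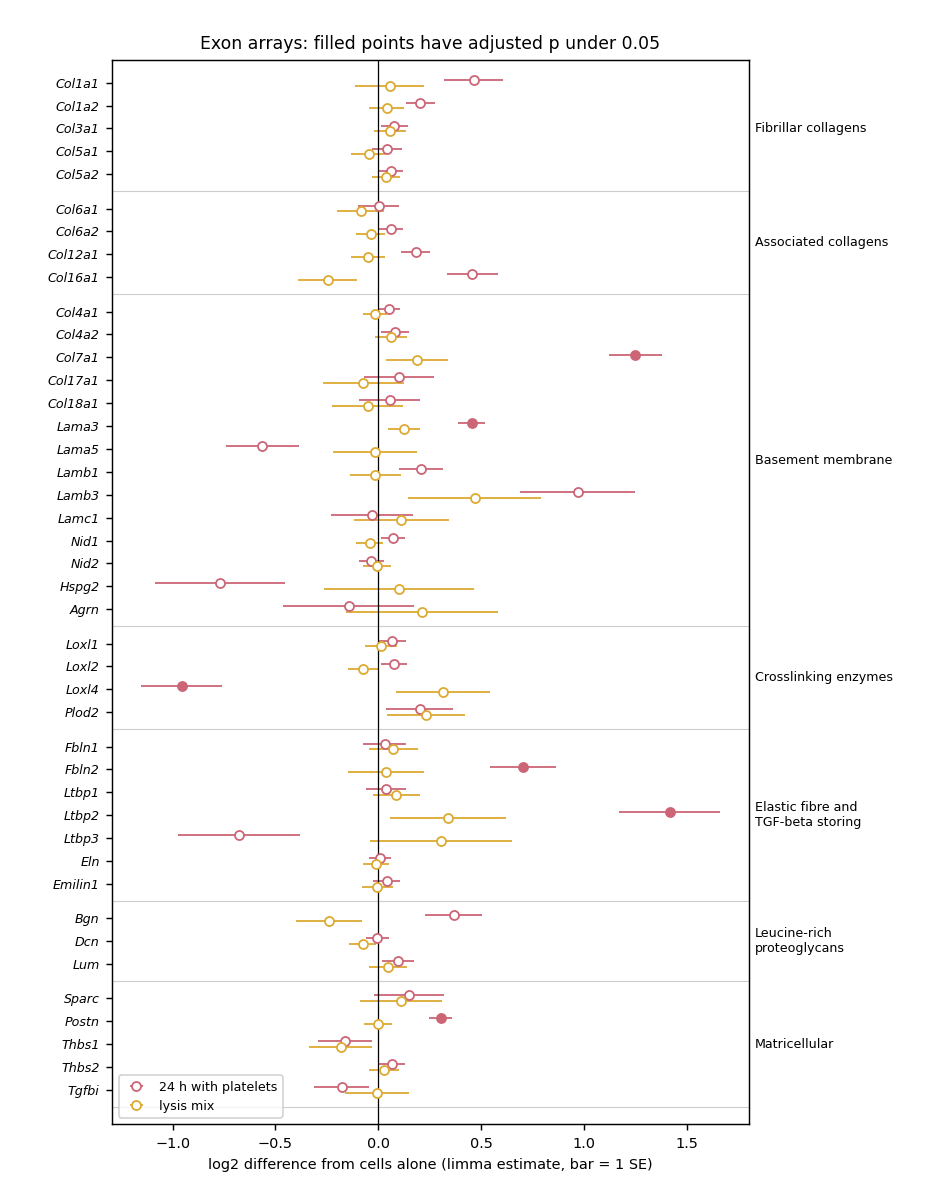
Log2 difference from cells alone (x axis) of 42 matrix genes on the exon arrays, after 24 h with platelets (red) and in the lysis mix (yellow), grouped by role; points are limma estimates, bars 1 SE, and filled points passed an adjusted p under 0.05. Filled points are Ltbp2, Col7a1, Fbln2, Lama3 and Postn above 0 and Loxl4 below 0, all from the coculture.

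The lysis mix arrays carry numbers 4 to 6. The 6 called genes had the same direction in both sets of exon array numbers. That direction was fixed in advance, because the coculture and alone arrays of these genes did not overlap. Only the sizes could differ between the sets. Within numbers 1 to 3, coculture differed from alone by 1.30 for Col7a1, 1.41 for Ltbp2, 0.64 for Fbln2, 0.39 for Lama3, 0.36 for Postn and -1.15 for Loxl4. Among arrays numbered 4 and above (2 alone, 2 coculture and 3 lysis mix), the same differences were 1.17, 1.43, 0.80, 0.55, 0.21 and -0.66. None of the 6 passed in the latter set, at adjusted p values of 0.172 to 0.561 by limma. Alone 1 and alone 5 were the highest alone arrays in 12 of the 18 members above the median gene level. The share of all genes above that level with this order was not counted. The order is therefore not shown to be particular to the members.

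In other matrix genes, taken from a list of 63 of which 59 were measured, 3 rose and 6 fell after coculture against cells alone. Over all genes, 4.55% were called in this comparison, 2.07% higher and 2.47% lower. Pxdn, the peroxidase that crosslinks type IV collagen, rose by 1.48 ± 0.19 log2, the matrilin gene Matn2 by 1.00 ± 0.21 and Thbs3 by 0.70 ± 0.15. Adamts14, a procollagen-processing protease, fell by 1.32 ± 0.17, the network collagen gene Col8a1 by 1.07 ± 0.22, the collagen prolyl hydroxylase gene P4ha2 by 0.94 ± 0.14 and the crosslinking transglutaminase gene Tgm2 by 0.72 ± 0.10. The proteoglycan gene Ogn and the laminin gene Lamb2 fell by 0.68 ± 0.17 and 0.63 ± 0.16. Adjusted p values of these 9 ran from 0.000514 to 0.0425 by limma.

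The gene arrays asked which fraction of platelets goes with a change. With platelets, 1 of 42 members was called against cells alone, where 0.667% of all genes were. That member was Postn, and its level (probe set 10492021) was 4.67, 4.86 and 4.84 alone, 5.40, 5.44 and 5.40 with platelets, 5.12, 5.59 and 5.24 with pellet, and 4.88, 4.92 and 5.10 with releasate. Alone and releasate arrays were all below the platelet and pellet arrays. All these levels lie below the median gene level of the gene arrays, 5.62. The rise with platelets was 0.63 ± 0.11 log2, or 1.54-fold (adjusted p = 0.0293, limma, and 0.00959 with the replicate number as a block). This call was lost in each of the 6 fits without 1 alone or platelet array, at adjusted p values from 0.0622 to 0.130, and without alone 8 and platelets 9 together. With the pellet Postn was 0.53 ± 0.11 above alone (adjusted p = 0.0739, limma, and 0.0260 with the replicate number as a block). With the releasate it was 0.18 ± 0.11 above alone (95% interval -0.06 to 0.42).

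Loxl4, the member that fell on the exon arrays, did not pass on the gene arrays in the fit without a block, which used its brighter probe set. With the mean over its probe sets it was called below alone with platelets and with pellet. The brighter probe set was 11.02, 11.19 and 10.95 alone, 10.47, 10.44 and 10.04 with platelets, 10.88, 10.43 and 10.13 with pellet, and 10.96, 10.96 and 10.73 with releasate. The platelet arrays did not overlap the alone arrays. The differences from alone were -0.74 ± 0.17 with platelets (adjusted p = 0.0956, limma, and 0.0112 with the replicate number as a block) and -0.57 ± 0.17 with pellet (adjusted p = 0.240, and 0.0391 with that block). With releasate the difference was -0.17 (95% interval -0.55 to 0.20). A dimmer probe set of Loxl4 had means of 8.17 ± 0.06 (SD, n = 3) alone, 7.35 ± 0.23 with platelets, 7.32 ± 0.30 with pellet and 7.96 ± 0.21 with releasate.

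With platelets on the gene arrays, the latent TGF-beta binding protein gene Ltbp2 lay above alone, and Ltbp1 and Ltbp3 lay below. None was called in the fit without a block, and no test was made between these genes. Ltbp2 was 7.60, 7.61 and 7.53 alone and 8.02, 7.96 and 8.68 with platelets, a difference of 0.64 ± 0.23 with an adjusted p of 0.342. With pellet it was 7.37, 8.36 and 8.11, where pellet 7 lay below all alone arrays, and with releasate 7.59, 7.76 and 7.67. Ltbp1 was 10.91, 10.81 and 10.81 alone and 10.62, 10.58 and 10.55 with platelets, at -0.26 ± 0.05 (adjusted p = 0.0596, limma, and 0.0349 with the replicate number as a block). With pellet Ltbp1 was 10.61, 10.65 and 10.55, and with releasate 10.76, 10.65 and 10.71, all below the alone arrays. Ltbp3 was 8.59, 8.57 and 8.56 alone, 8.17, 7.60 and 8.29 with platelets and 7.46, 7.98 and 7.80 with pellet. Neither group overlapped the alone arrays, yet its differences of -0.55 ± 0.23 and -0.83 ± 0.23 did not pass (adjusted p = 0.451 and 0.188).

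**Figure D3:**
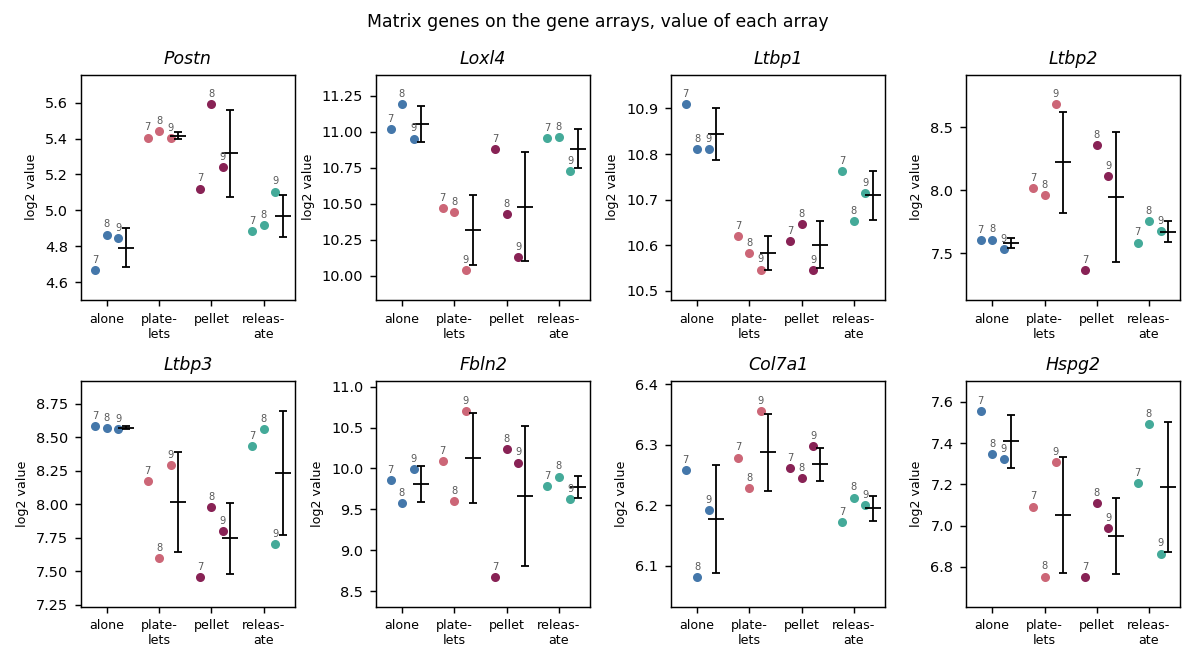
Log2 value (y axis, own scale per panel) of each gene array, numbered by replicate, for 8 matrix genes in cells alone, with platelets, with pellet and with releasate (n = 3 each); black bars are mean and SD. Postn is above and Ltbp1 below the alone arrays in every platelet, pellet and releasate array, and Fbln2 and Ltbp2 are low in pellet 7.

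With pellet 0 of 42 members were called against alone (0.416% of all genes; 6 members at an unadjusted p under 0.05), and with releasate 0 of 42 (0% of all genes; 1 member at an unadjusted p under 0.05), by limma. The releasate differences ran from -0.34 for Ltbp3 to 0.18 for Postn. No member was called between platelets and releasate (0.0451% of all genes), platelets and pellet (0%) or pellet and releasate (0.00502%), with 4, 2 and 3 members at an unadjusted p under 0.05. A difference between the fractions in these genes was therefore not shown. Platelets against releasate gave -0.56 for Loxl4, 0.55 for Ltbp2 and 0.45 for Postn. The comparisons against alone share the same 3 alone arrays.

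Basement membrane and fibrillar genes were not called in any gene-array comparison. The 5 fibrillar genes lay within -0.05 and 0.11 log2 of alone in all 3 treatments. Hspg2 was -0.36 ± 0.17 with platelets, -0.46 ± 0.17 with pellet and -0.22 ± 0.17 with releasate, and Lama5 was -0.31 ± 0.18, -0.48 ± 0.18 and -0.19 ± 0.18. Agrn, the heparan sulphate proteoglycan agrin, was -0.45 ± 0.23 with pellet, where pellet 7 was lowest at 7.37. Of 60 other matrix genes, 0 were called against alone with platelets, pellet or releasate (0.667%, 0.416% and 0% of all genes). By limma 13, 8 and 2 of the 60 had an unadjusted p under 0.05.

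**Figure D4:**
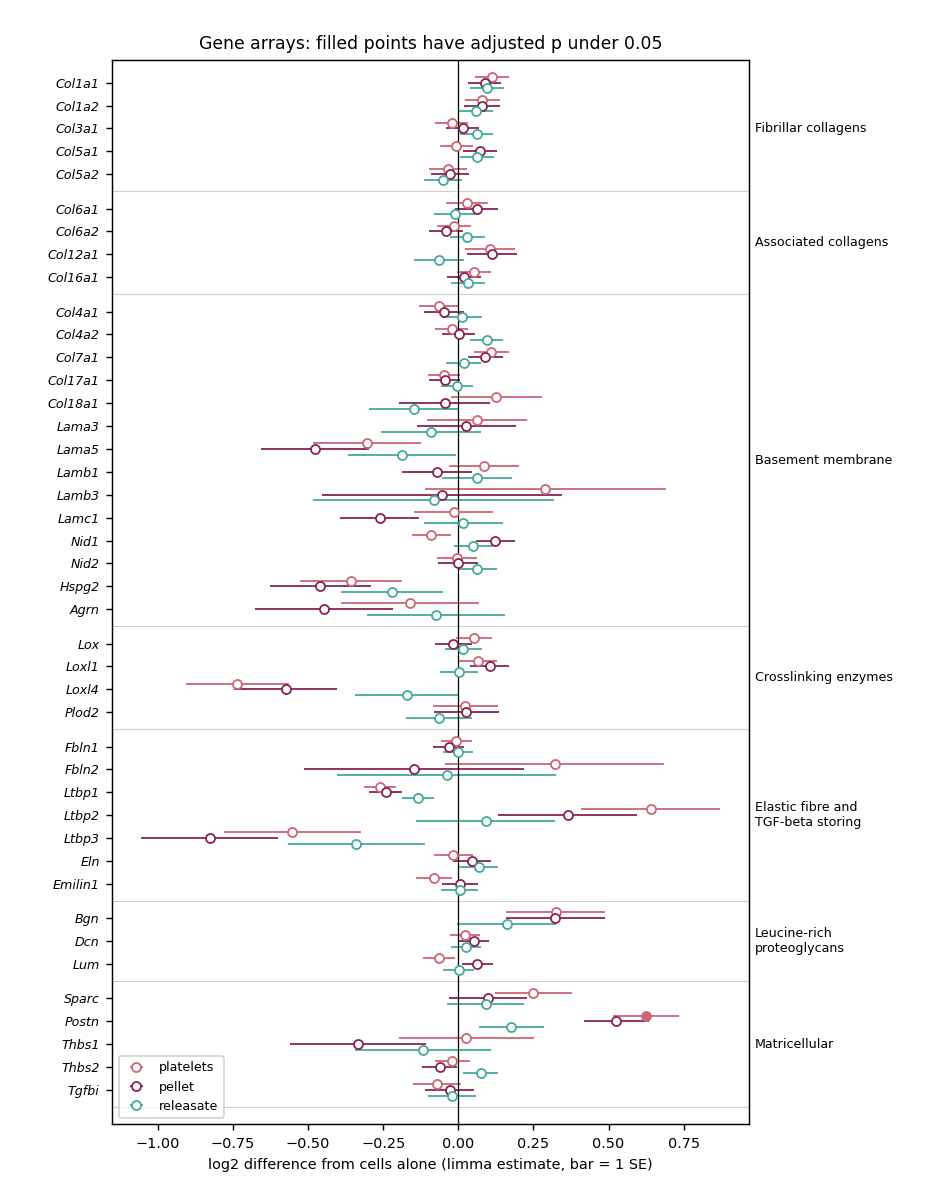
Log2 difference from cells alone (x axis) of 42 matrix genes on the gene arrays with platelets (red), pellet (purple) and releasate (green), grouped by role; points are limma estimates, bars 1 SE, and the filled point, Postn with platelets, passed an adjusted p under 0.05. Releasate points lie between -0.34 and 0.18.

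Set side by side, the array types gave unlike sizes for some members that rose on the exon arrays. Col7a1 was 1.25 above alone on the exon arrays and 0.11 (95% interval -0.02 to 0.24) on the gene arrays, with gene-array values of 6.08 to 6.26 alone and 6.23 to 6.36 with platelets. Lama3 was 0.45 and 0.06 (-0.30 to 0.43), Fbln2 0.71 and 0.32 (-0.48 to 1.12), and Ltbp2 1.42 and 0.64 (0.13 to 1.15). Loxl4 was -0.96 and -0.74, and Postn 0.30 and 0.63. The array types were processed separately and differ in labelling, and no test was made between them. Of 41 members on both, 25 (61.0%) had the same sign with platelets, against 60.9% of 17491 genes on both. Of the 17 members above the median gene level on both, 15 (88.2%) had the same sign, against 69.3% of 8611 such genes.

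**Figure D5:**
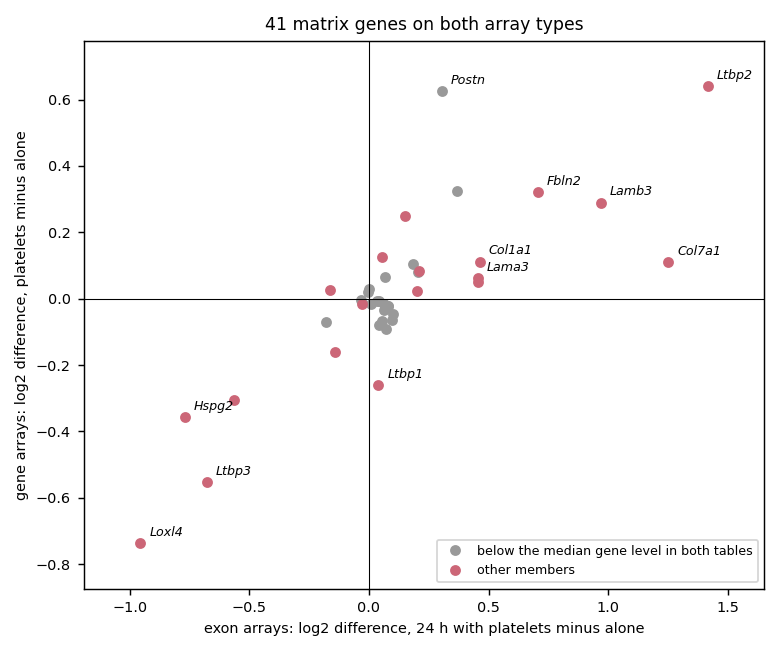
Log2 difference with platelets from cells alone on the exon arrays (x axis) and the gene arrays (y axis) for the 41 matrix genes on both; each point is a gene, grey where its level lay below the median gene level on both. Ltbp2, Fbln2, Lamb3 and Postn lie above 0 and Loxl4, Ltbp3 and Hspg2 below 0 on both, while Col7a1 is at 1.25 and 0.11.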

How the data were processed

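RNA of 25 samples was measured on Affymetrix mouse exon arrays (13) and gene arrays (12). The values are log2 probe set summaries that the authors deposited, made with RMA in Partek 6.4 (exon) and Partek 6.5 (gene) per the submitters' processing notes. Each table was normalized on its own, and every test stays within a table. Groups follow the source names. Where several probe sets with 1 symbol named a gene, the brightest on average was used, leaving 18997 and 19938 genes. Among the members this applied to Loxl4 (gene arrays) and Col17a1 (exon arrays). Differences were fitted with limma 3.58.1 in R 4.3.3 on all groups of a table, with Benjamini-Hochberg adjustment over all its genes, and the fit was tested on simulated data. The members, roles and lists were chosen with earlier results of these data known. Values are given per array for members called against alone, and further ones were named after their values were seen. Same-numbered gene arrays deviated together between alone and platelets (correlations 0.287 to 0.442) and between alone and releasate (0.292 to 0.381). Between alone and pellet the correlations ran from -0.0374 to 0.339. The replicate number was therefore also fitted as a block on the gene arrays, and that fit is given where it changed a call. The number of arrays limits the precision. No build is used for the arrays, and promoter windows follow GRCm38.p6. Bases after the transcript start were left out.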

Additional observations from a re-analysis of the deposited data

Results flagged for a closer look

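Of 84 sets of 5 exon arrays (42 members in 2 groups), 2 held an array far from the other 4, and chance alone flags about 1 in 20 such sets. Coculture 4 had a log2 level of 10.73 for the laminin gene Lamb1, against 10.17 to 10.24 in the other coculture arrays. Coculture 5 had 4.07 for the microfibrillar collagen gene Col6a2, against 3.91 to 3.95 in the others. Neither gene was called in any comparison.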

How the results depend on the processing

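Counts of members called were recomputed under other settings. Exon coculture against alone, 6 in the report, was 0 with numbers 4 to 6 only and 5 to 9 otherwise, and 5 to 7 in the fits without 1 array. Col7a1, Lama3, Loxl4, Ltbp2 and Postn were called in all 10 of those. Coculture against lysis mix, 5 in the report, was 2 with the replicate block (Col7a1 and Ltbp2), 0 with numbers 4 to 6 only and 3 to 5 without 1 array, with 3 without coculture 2, lysis mix 4 or lysis mix 6. Platelets against alone, 1 in the report, was 3 with the replicate block (Loxl4, Ltbp1 and Postn), 2 with the mean over probe sets or quantile normalization, and 0 with dim genes left out (Postn among them), without alone 8 and platelets 9, or without any 1 array (0 to 0). Pellet against alone, 0 in the report, was 2 with the replicate block (Loxl4 and Postn), 1 with the mean over probe sets (Loxl4) and 0 to 2 without 1 array, with 2 without pellet 7. The other 5 comparisons gave 0 under every setting run, and no called value changed sign. For genes called in the report the compared groups did not overlap, so leaving arrays out could not change a sign. On the exon arrays same-numbered samples deviated together in some pairs and not in others (deviation correlations from -0.255 to 0.652). Whether the number pairs these samples was not settled. The replicate block gave 9 against alone, adding Col1a1, Lamb3 and Ltbp3. Without alone 5 and coculture 5, chosen after seeing the data, the exon counts were 5, 0 and 5. Causes were not tested. Dim genes have only their probe signal behind a difference, and 24 of 42 members lie below the median gene level.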
